A study of Mus musculus with 6 samples.

Results

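This account covers 39 genes whose proteins build the centromere and the kinetochore. They were listed by name, with earlier results of these data known, in a table of read counts with 52459 rows. All 39 were found, and all 39 had enough reads to be among the 14130 rows tested. The fewest reads of any of them in a library was 5.

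RNA was sequenced from liver tumours of MYC-LAP-tTA mice, to compare tumours with MYC active and with MYC switched off. In this model the transactivator tTA, expressed from the liver-enriched LAP promoter, drives a MYC transgene, and all 6 samples carried that genotype. The MYC_On group was 3 tumour samples with MYC activation, and the MYC_Off group was 3 tumour samples on day 4 of MYC inactivation. Whole tumour tissue was frozen and extracted, and whether each sample was a different animal is not stated in the labels. The p-values therefore reflect only the spread among these samples, which may be technical.

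Libraries held between 16292718 and 19265623 assigned reads, so that 1 read was worth 0.0519 to 0.0614 CPM (counts per fixed total of reads) before scaling for composition. With MYC on, Myc read 779, 1018 and 854 CPM in replicates 1 to 3, and with MYC off 74.8, 10.2 and 18.7 CPM, so the row follows the labels. Whether it also takes reads of the transgene cannot be told from the counts. The labelled tissue was checked by its markers: all 6 hepatocyte markers (Alb, Ttr, Apoa1, Apoc3, Serpina1c, Fgb) were read in every library, and their summed level was 2975 to 6505 CPM in MYC_On and 84110 to 250500 CPM in MYC_Off. Levels below are CPM after TMM scaling, in the order of replicates 1, 2 and 3 or as mean ± SD (n = 3). A negative log2 fold change means a lower level in MYC_Off, and each comes with its standard error (SE). An adjusted p comes from edgeR's quasi-likelihood test over all 14130 rows, with Benjamini-Hochberg adjustment and a threshold of 0.05.

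A centromere is the stretch of chromosome where nucleosomes carry CENP-A, a variant histone. On it sits the constitutive centromere-associated network (CCAN), which in mitosis recruits the outer kinetochore, a set of complexes known together as KMN that grips spindle microtubules. Unattached kinetochores recruit checkpoint proteins that hold back anaphase until every chromosome is attached. Cells that do not divide have little need of the outer layers, and many of these genes are transcribed mainly late in the cell cycle. An adult liver at rest divides little, while tumours of this model divide rapidly as long as MYC is on.

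Most of the 39 genes fell on MYC inactivation. By the test 32 were lower, 1 (Cenpb) was higher, and 6 did not pass (Cenpj, Cenpo, Mad1l1, Mis12, Ska2 and Zwint). Among all rows tested, 22.8% were called lower and 29.9% higher. The median log2 fold change of the 39 genes was -3.02, beside 0.18 over all rows tested, and 23 of them lay under the 5th percentile of all rows (-2.43). All MYC_Off libraries were below all MYC_On libraries for 33 of the 39, against 29.8% of all rows. Against a minimum change of 2-fold, 28 of the 39 were lower, where 10.1% of all rows were. Scaling by library size alone shifted the median of all rows by -0.74, and the share of calls that were higher was then 32.3% in place of 56.7%. Under it 35 of the 39 genes were lower and 0 higher. In bulk tissue, fewer cells of a type and less RNA per cell cannot be told apart.

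**Figure D1:**
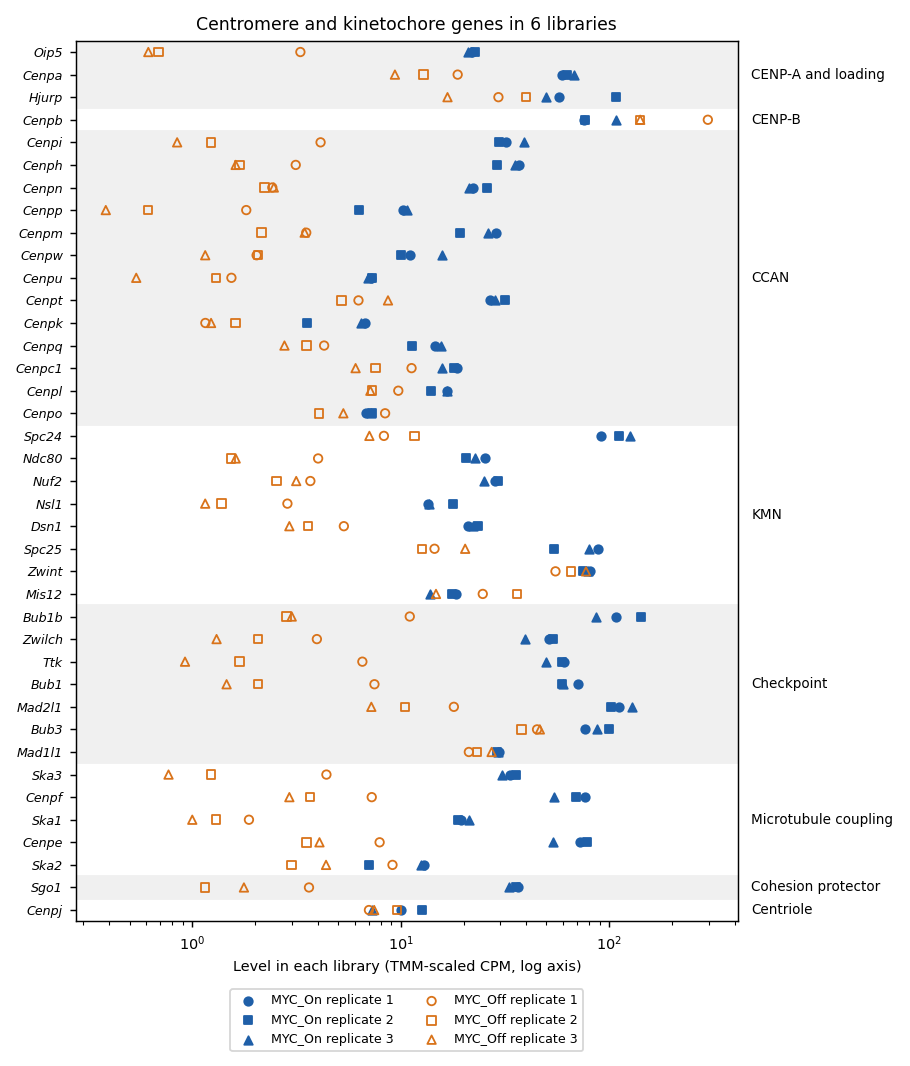
Level of each of the 39 genes in each of the 6 libraries, in TMM-scaled CPM on a log axis, with filled blue symbols for MYC_On, open orange symbols for MYC_Off and the symbol shape giving the replicate. For 33 genes every orange symbol lies left of every blue one, for Cenpb every orange symbol lies right, and for the other 5 the groups overlap.

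The genes that fell did not fall equally. Of the 32, 20 fell by a log2 of more than 3, 8 by 1.9 to 3 and 4 by less than 1.9 (Bub3, Cenpc1, Cenpl and Hjurp). Together the 39 genes took 0.205%, 0.221% and 0.195% of assigned reads in the MYC_On libraries and 0.0674%, 0.0322% and 0.0302% in the MYC_Off libraries. Relative to the MYC_On mean, the median over the 39 genes was -2.33, -3.22 and -3.17 (log2) in MYC_Off replicates 1, 2 and 3. Replicate 1 held the highest MYC_Off level for 27 of the 39 genes, beside 5463 of all 14130 rows tested. In that library the summed levels of T cell, macrophage, endothelial, stellate and red cell markers were also the highest of the 6. The T cell markers (Cd3e, Cd3d, Cd3g, Cd2) summed to 118 CPM, beside 13.5 and 2.77 in the other MYC_Off libraries and 1.07 to 1.97 in MYC_On.

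Markers of most other cell types listed here were higher in MYC_Off, where 29.9% of all rows tested were called higher. Macrophage markers were higher in MYC_Off for 6 of 6 genes, with sums of 287 to 546 CPM in MYC_On and 944 to 3806 CPM in MYC_Off. Stellate cell and fibroblast markers were higher for 5 of 5 genes (71.0 to 105 CPM against 729 to 1390 CPM) and endothelial markers for 3 of 4 (48.8 to 55.6 CPM against 210.0 to 510.3 CPM). T cell markers were higher for 3 of 3 tested (1.07 to 1.97 CPM against 2.77 to 118 CPM). In MYC_Off replicate 3, Cd2 (0.46 CPM) and the stellate cell marker Lrat (0.61 CPM) lay inside their MYC_On ranges. Red cell markers were higher for 3 of 3 tested (30.7 to 88.5 CPM against 600.4 to 2228 CPM). Of 4 cholangiocyte markers 1 (Sox9) was higher and 1 (Krt7) lower, with sums of 37.4 to 88.5 CPM against 23.9 to 62.8 CPM. The germ cell genes Sycp3, Dazl and Ddx4, included because some centromere genes are also read in testis, summed to at most 0.330 CPM in any library. The part of these cell types in the fall of the centromere and kinetochore genes was not tested.

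**Figure D2:**
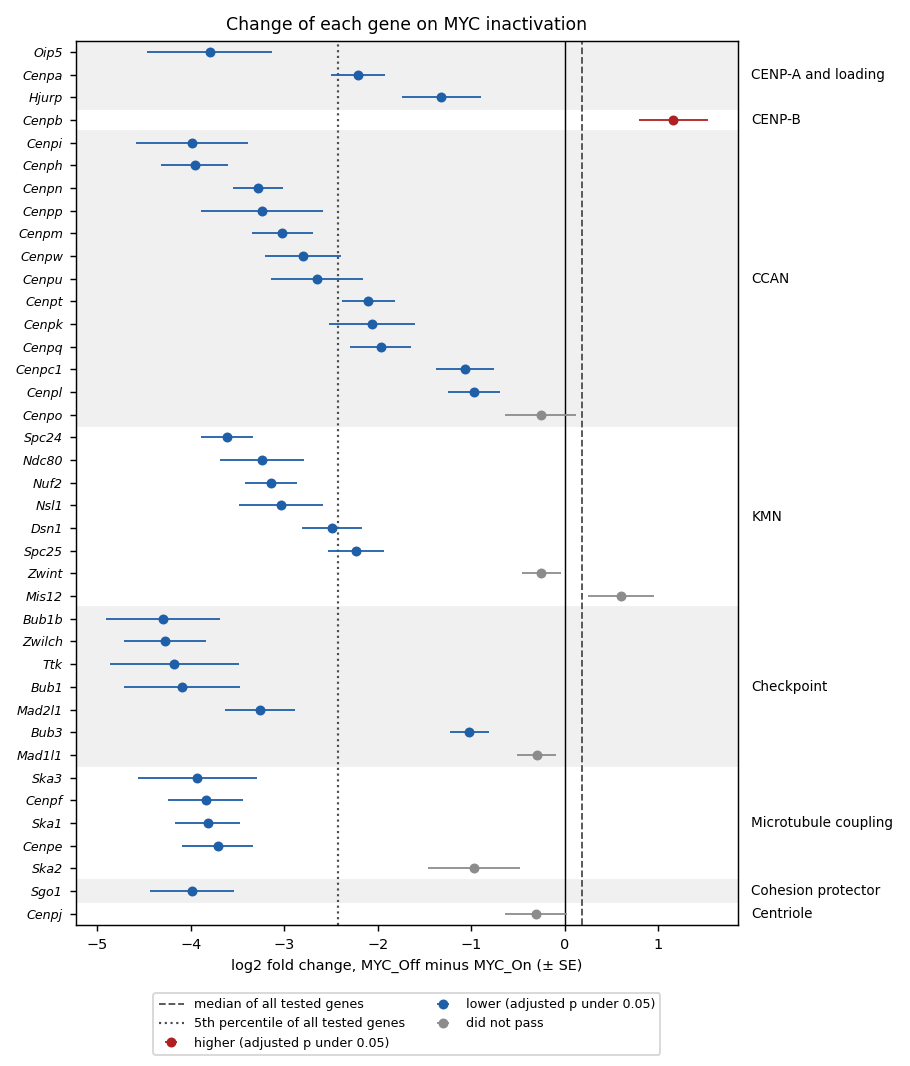
Log2 fold change (MYC_Off minus MYC_On) of each gene with its standard error, ordered by role, with the median of all tested rows dashed (0.18) and their 5th percentile dotted (-2.43). Blue points were lower, the red point (Cenpb) was higher and grey points did not pass an adjusted p of 0.05. The checkpoint genes Bub1b, Zwilch, Ttk and Bub1 reach furthest left (-4.30 to -4.09), followed by Cenpi, Sgo1 and Cenph.

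Because so many of these genes moved together, their promoters were searched for letters of 4 motifs. RefSeq windows (GRCm38.p6, 250 bases before the transcription start to 50 after) were matched by symbol for 35 of the 39 genes. Of these, 28 were called lower and 7 were not, which does not mean that the 7 were unchanged. Windows for Zwilch, Nsl1, Spc24 and Ska1 were not used here. The motifs, searched on both strands, were the cell cycle gene homology region or CHR (TTTGAA), which recruits the complexes that time late cell cycle genes, the NF-Y box (CCAAT), the E2F site (TTCCCGC or TTGGCGC) and the E-box that MYC and MAX bind (CACGTG). Printed first are 6 genes that fell and have a CHR match near the start, then Cenpb, which rose, and 3 genes that did not pass. Each line runs 5′ to 3′ on the gene's strand from 150 bases before the start to the 30th base from it, and capitals mark every match to any of the 4 motifs.
Cenpa, chr5:30666736-30666915, plus strand: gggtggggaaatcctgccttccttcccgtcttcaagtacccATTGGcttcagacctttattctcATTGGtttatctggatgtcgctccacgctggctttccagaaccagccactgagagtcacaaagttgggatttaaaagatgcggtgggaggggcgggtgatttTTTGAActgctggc
Cenpf, chr1:189688057-189688236, minus strand: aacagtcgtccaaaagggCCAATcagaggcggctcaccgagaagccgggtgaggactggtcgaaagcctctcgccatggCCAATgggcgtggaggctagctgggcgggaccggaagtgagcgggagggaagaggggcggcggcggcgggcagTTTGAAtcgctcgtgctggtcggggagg
Ttk, chr9:83834539-83834718, plus strand: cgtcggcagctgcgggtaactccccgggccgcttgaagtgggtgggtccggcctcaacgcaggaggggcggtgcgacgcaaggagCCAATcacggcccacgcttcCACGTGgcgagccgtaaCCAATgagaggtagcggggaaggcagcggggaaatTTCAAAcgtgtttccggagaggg
Cenpn, chr8:116921590-116921769, plus strand: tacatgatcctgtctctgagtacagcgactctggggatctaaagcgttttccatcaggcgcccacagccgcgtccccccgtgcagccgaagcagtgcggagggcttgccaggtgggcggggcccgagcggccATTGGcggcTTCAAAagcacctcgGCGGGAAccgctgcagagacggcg
Spc25, chr2:69206184-69206363, minus strand: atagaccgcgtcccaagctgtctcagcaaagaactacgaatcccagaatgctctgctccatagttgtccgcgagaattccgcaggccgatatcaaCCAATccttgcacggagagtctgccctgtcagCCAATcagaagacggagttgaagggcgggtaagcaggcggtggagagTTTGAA
Bub3, chr7:131560220-131560399, plus strand: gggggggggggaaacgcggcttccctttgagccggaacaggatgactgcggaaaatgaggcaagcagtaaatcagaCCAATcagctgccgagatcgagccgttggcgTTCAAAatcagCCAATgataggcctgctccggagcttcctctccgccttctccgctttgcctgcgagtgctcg
Cenpb, chr2:131180038-131180217, minus strand: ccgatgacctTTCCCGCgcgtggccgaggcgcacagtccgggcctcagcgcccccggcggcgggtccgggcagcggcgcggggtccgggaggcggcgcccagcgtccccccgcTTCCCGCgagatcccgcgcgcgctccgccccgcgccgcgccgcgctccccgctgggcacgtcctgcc
Mis12, chr11:71019461-71019640, plus strand: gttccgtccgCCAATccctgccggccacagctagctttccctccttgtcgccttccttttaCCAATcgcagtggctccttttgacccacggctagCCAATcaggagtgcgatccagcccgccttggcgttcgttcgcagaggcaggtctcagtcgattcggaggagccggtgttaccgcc
Zwint, chr10:72654696-72654875, plus strand: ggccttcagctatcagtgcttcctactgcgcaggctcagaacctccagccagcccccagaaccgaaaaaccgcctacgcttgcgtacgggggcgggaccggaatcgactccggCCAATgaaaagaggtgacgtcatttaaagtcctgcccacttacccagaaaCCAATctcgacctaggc
Mad1l1, chr5:140321523-140321702, minus strand: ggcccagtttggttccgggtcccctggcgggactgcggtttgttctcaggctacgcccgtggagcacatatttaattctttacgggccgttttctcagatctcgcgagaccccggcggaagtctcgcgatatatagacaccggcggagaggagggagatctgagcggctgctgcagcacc

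Counting the start base as 0, the CHR letters begin at 16 in Cenpa, 2 in Cenpf, 7 in Ttk, -9 in Cenpn, 24 in Spc25 and -43 in Bub3, and each of these 6 stretches also holds at least 1 CCAAT box. The 6 were picked for CHR letters, so no gene that fell without them is printed. Ska3 and Ndc80, not printed, have CHR letters near the start but no CCAAT box in the window. A CHR match was present in 13 of the 28 windows of genes that fell (46.4%) and in 0 of the 7 others, beside 14.6% of the 10521 tested genes with a window. In 12 of the 13 the match began within 50 bases of the start (42.9% of the 28 genes, beside 3.91% of tested genes), a distance chosen after the positions were seen. CHR and CCAAT occurred together in 11 of the 28 (39.3%) and in 0 of the 7, beside 5.82% of tested genes. With only 7 genes, 0 matches set no clear contrast with shares of 14.6% and 5.82%.

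CCAAT was frequent outside the set as well: 21 of the 28 genes that fell had it (75%), 3 of the 7 others (42.9%, Mis12, Zwint and Ska2) and 42.5% of tested genes. E2F letters were in 7 of the 28 (25%) and 3 of the 7 (42.9%, Cenpb, Cenpo and Ska2), beside 13.6% of tested genes. The E-box was in 2 of the 28 (7.14%, Ttk and Sgo1) and 1 of the 7 (Mad1l1, in another of its windows), beside 11.5% of tested genes. In Ska2 an E2F match overlaps a CCAAT box, and in Cenpw a CHR match overlaps one. These are matches of letters only and say nothing about binding, and 15 of the 28 genes that fell had no CHR letters in the window.

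**Figure D3:**
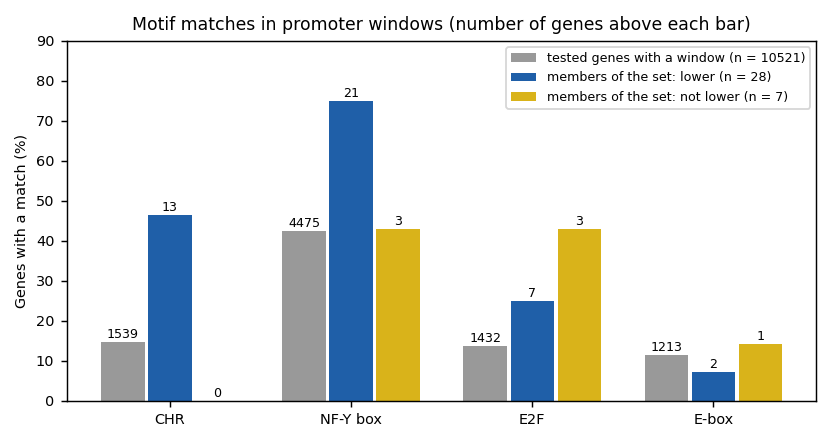
Share of genes with a match to each motif in the promoter window (bars from 0, in percent, with the number of genes above each bar), for tested genes with a window (n = 10521), genes of the set that fell (n = 28) and genes of the set not called lower (n = 7). The CHR bar stands at 46.4% for genes that fell and at 0 for the others, and the E-box bars differ least.

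CENP-A and the proteins that load it were all lower in MYC_Off. Cenpa, the centromeric histone itself (chromosome 5, 30666777 to 30674830, plus strand, mm10), stood at 59.6, 62.8 and 67.6 CPM in MYC_On and at 18.7, 12.9 and 9.37 CPM in MYC_Off. The groups were far apart, and mean Cenpa fell to 13.7 ± 4.73 CPM from 63.3 ± 4.01 CPM (log2 fold change -2.21, SE 0.29, adjusted p = 0.00153). Its CHR letters are among the sequences above.

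Oip5 encodes a subunit of the Mis18 complex, which primes centromeres for new CENP-A. It had 21.96, 22.8 and 21.1 CPM in MYC_On and 3.30, 0.689 and 0.615 CPM in MYC_Off, where replicates 2 and 3 rested on 9 and 8 reads. The 3 MYC_On libraries were nearly equal, and MYC_Off replicate 1 was well above the other 2 (log2 fold change -3.80, SE 0.67, adjusted p = 0.00383). The exons of Oip5 overlap 172 bases of Nusap1 on the other strand, whose reads cannot be told apart without strand information.

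Hjurp, the chaperone that deposits CENP-A, had the smallest fold change of the 3 and the widest spread in MYC_On. Its levels were 57.1, 107 and 49.96 CPM in MYC_On and 29.4, 39.9 and 16.7 CPM in MYC_Off. MYC_On replicate 2 stood alone at the top, and MYC_Off replicate 2 was the highest of its group and close to the lowest MYC_On library. Its log2 fold change of -1.32 (SE 0.42, adjusted p = 0.0319) did not pass without MYC_On replicate 1 (adjusted p = 0.0502) or without MYC_On replicate 2 (adjusted p = 0.0992).

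Cenpb was the exception in direction. It encodes CENP-B, which binds a short box in centromeric satellite DNA and is present through the whole cell cycle (chromosome 2, 131175182 to 131180067, minus strand). It stood at 75.3, 76.4 and 108 CPM in MYC_On and at 297, 141 and 141 CPM in MYC_Off. Every MYC_Off library was above every MYC_On library, but replicate 1 was far above the other 2, which were nearly equal. By the test Cenpb rose (log2 fold change 1.16, SE 0.37, adjusted p = 0.0317). Without MYC_Off replicate 1 it was 0.55 (adjusted p = 0.0829), without any single MYC_On replicate 1.01 to 1.29 (adjusted p = 0.0635 to 0.128), and with library size in place of TMM 0.54 (adjusted p = 0.349). Leaving the 20 most abundant genes out of the library size gave 0.84 (adjusted p = 0.146). The printed Cenpb promoter, with its 2 E2F matches, holds neither CHR nor CCAAT letters.

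In the CCAN, the inner layer, 12 of 13 genes fell and 1 (Cenpo) did not pass, with a median log2 fold change of -2.65. The subunits of the CENP-H, -I, -K and -M complex, which bridges inner and outer kinetochore, fell in 4 of 4 cases with a median of -3.49. Cenpi (chromosome X, 134308084 to 134362639, plus strand) had 31.9, 29.7 and 39.01 CPM in MYC_On and 4.12, 1.22 and 0.845 CPM in MYC_Off (log2 fold change -3.99, SE 0.60, adjusted p = 0.00227). Cenph, its partner, had 36.8, 29.1 and 35.4 CPM and then 3.13, 1.68 and 1.61 CPM (-3.96, SE 0.36, adjusted p = 0.000807). In both genes MYC_Off replicate 1 was the highest of its group and still far below every MYC_On library. Cenpm fell by 3.02 (SE 0.33, adjusted p = 0.000968) and Cenpk by 2.06 (SE 0.46, adjusted p = 0.00846) on the log2 scale. Cenpk was read at only 3.56 to 6.73 CPM in MYC_On, and its exons overlap 233 bases of Ppwd1 on the other strand.

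CENP-N reads the CENP-A nucleosome and forms a pair with CENP-L, yet their genes moved by different amounts. Cenpn (chromosome 8, 116921730 to 116941507, plus strand) stood at 22.2, 25.8 and 21.2 CPM in MYC_On and at 2.42, 2.22 and 2.46 CPM in MYC_Off. Its log2 fold change was -3.28 (SE 0.27, adjusted p = 0.000805). The MYC_Off libraries of Cenpn were the most even of the 39 genes, with a coefficient of variation of 5.40%. They rested on 44, 29 and 32 reads, few enough that so small a spread may be chance. Cenpl had 16.7, 14.0 and 16.6 CPM and then 9.73, 7.27 and 7.14 CPM (log2 fold change -0.97, SE 0.28, adjusted p = 0.0214). The Cenpl groups did not overlap, but the call was lost without MYC_On replicate 1, without MYC_On replicate 3 or without MYC_Off replicate 2 (adjusted p = 0.0556 to 0.0788).

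CENP-C, encoded by Cenpc1, is the scaffold that links CENP-A nucleosomes to the outer layer. Cenpc1 (chromosome 5, 86012024 to 86065583, minus strand) had 18.7, 18.05 and 15.8 CPM in MYC_On and 11.3, 7.58 and 6.07 CPM in MYC_Off. Its log2 fold change was -1.07 (SE 0.31, adjusted p = 0.0236), and the call was lost without any single MYC_On replicate or without MYC_Off replicate 2 (adjusted p = 0.0528 to 0.0766). Cenpt and Cenpw, histone-fold subunits that form a second link to the outer kinetochore, fell by 2.10 (SE 0.28) and 2.80 (SE 0.41) on the log2 scale, with adjusted p = 0.00154 and 0.00197.

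In the CENP-O, -P, -Q and -U complex 3 of 4 genes fell. Cenpp fell by 3.24 (SE 0.65), Cenpu by 2.65 (SE 0.49) and Cenpq by 1.97 (SE 0.33) on the log2 scale, with adjusted p = 0.00597, 0.00453 and 0.00323. In MYC_Off replicate 3, Cenpu and Cenpp were down to 7 and 5 reads. Cenpo had 6.81, 7.29 and 7.20 CPM in MYC_On and 8.41, 4.06 and 5.30 CPM in MYC_Off, so the groups overlapped (-0.26, SE 0.38, adjusted p = 0.59). The exons of Cenpo share 1632 bases with Adcy3 and Ptrhd1 on the other strand, those of Cenpu 1069 bases with Primpol and those of Cenpp 322 bases with Aspn and Ippk. How much of their reads came from those neighbours was not tested.

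Of the 8 genes of the outer kinetochore network KMN, 6 fell and 2 (Mis12 and Zwint) did not pass, with a median of -2.76. The NDC80 complex, the rod that holds the microtubule, fell in 4 of 4 subunits. Ndc80 (chromosome 17, 71496100 to 71526857, minus strand) had 25.3, 20.5 and 22.8 CPM in MYC_On and 4.01, 1.53 and 1.61 CPM in MYC_Off (log2 fold change -3.24, SE 0.45, adjusted p = 0.00174). Nuf2, its partner at the microtubule end, had 28.4, 29.2 and 25.0 CPM and then 3.68, 2.53 and 3.15 CPM (-3.14, SE 0.28, adjusted p = 0.000805). Neither gene came near an overlap between groups. Of the Ndc80 transcript, 22.9% is shared with 2700099C18Rik and Gm47120, so its count is uncertain.

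Spc24 and Spc25 form the other end of the rod, which docks on the inner kinetochore. Spc24 (chromosome 9, 21755442 to 21760303, minus strand) had 91.6, 112 and 126 CPM in MYC_On and 8.30, 11.6 and 7.07 CPM in MYC_Off (log2 fold change -3.61, SE 0.28, adjusted p = 0.000805). Spc25 (chromosome 2, 69193895 to 69206194, minus strand) had 88.4, 54.0 and 79.6 CPM and then 14.5, 12.6 and 20.4 CPM (-2.23, SE 0.30, adjusted p = 0.00153). Of the Spc24 transcript, 13.4% is shared with stretches in 210 other genes, so its count is uncertain as well. The pair also shifted without any scaling between libraries, as 1 of 18 pairs picked after their values were seen. There were 1.04, 2.07 and 1.58 reads of Spc24 per read of Spc25 in MYC_On and 0.572, 0.921 and 0.347 in MYC_Off, with no overlap. Per kilobase of merged exons in MYC_On, Ndc80 stood at 3.52 ± 0.369 RPKM (reads per kilobase, scaled as CPM) and Nuf2 at 4.34 ± 0.353, well below Spc25 at 23.2 ± 5.60 and Spc24 at 42.7 ± 6.74. With the length of the principal transcript the same 4 levels were 10.4, 11.5, 62.0 and 80.4 RPKM. The order was the same with both lengths.

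The MIS12 complex joins the rod to the inner layer, and its genes went separate ways. Dsn1 had 20.9, 23.5 and 22.2 CPM in MYC_On and 5.33, 3.60 and 2.92 CPM in MYC_Off (-2.49, SE 0.32, adjusted p = 0.00137). Nsl1 fell from 15.0 ± 2.52 to 1.80 ± 0.926 CPM (-3.04, SE 0.45, adjusted p = 0.00202). Mis12 (chromosome 11, 71019611 to 71027371, plus strand) had 18.3, 17.7 and 13.8 CPM in MYC_On and 24.7, 36.1 and 14.8 CPM in MYC_Off, where replicate 3 lay among the MYC_On values. Its log2 fold change of 0.60 (SE 0.35, adjusted p = 0.185) passed without MYC_Off replicate 3 (0.77, adjusted p = 0.0455) and took the opposite sign with library size only (-0.13). Exons of Mis12 share 231 bases with Derl2 on the other strand.

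Within each library, Mis12 had 0.875, 0.751 and 0.619 reads per read of Dsn1 in MYC_On and 4.64, 10.02 and 5.05 in MYC_Off. The groups did not overlap, in a pair picked after its values were seen. A ratio inside a library shows unequal change of the pair, not which member moved. Zwint, a protein bound to the KMN scaffold that helps recruit the checkpoint, had 81.2, 74.7 and 79.0 CPM in MYC_On and 55.2, 65.5 and 77.3 CPM in MYC_Off. MYC_Off replicate 3 lay inside the MYC_On range (-0.25, SE 0.21, adjusted p = 0.343). With library size only Zwint was lower (-1.0, adjusted p = 0.00752), as it was with the library size less the 20 most abundant genes (-0.65, adjusted p = 0.0335).

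The 4 largest falls of the 39 were in spindle checkpoint genes, although Cenpi and Sgo1 (both -3.99) followed within the SE. Of the 7 checkpoint genes, 6 fell, with a median of -4.09. Bub1b, which encodes the inhibitor BUBR1 of the anaphase-promoting complex (chromosome 2, 118598211 to 118641591, plus strand), had 107, 142 and 86.5 CPM in MYC_On and 11.0, 2.83 and 3.00 CPM in MYC_Off. The mean went from 112 ± 28.3 to 5.62 ± 4.70 CPM, 5.02% of the MYC_On level (log2 fold change -4.30, SE 0.61, adjusted p = 0.00183). Bub1, the kinase that gathers checkpoint proteins at kinetochores, had 71.1, 59.6 and 60.3 CPM and then 7.47, 2.07 and 1.46 CPM (-4.09, SE 0.62, adjusted p = 0.00228). MYC_Off replicate 1 stood apart from the other 2 libraries in both genes.

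Ttk, the kinase that starts checkpoint signalling (chromosome 9, 83834689 to 83872389, plus strand), had 60.8, 59.2 and 49.5 CPM in MYC_On and 6.54, 1.68 and 0.922 CPM in MYC_Off (-4.18, SE 0.69, adjusted p = 0.00306). Zwilch, a subunit of the complex that brings dynein to kinetochores, had 51.3, 53.5 and 39.5 CPM and then 3.96, 2.07 and 1.31 CPM (-4.28, SE 0.44, adjusted p = 0.000896). In both genes the groups were separated by a wide gap. Exons of Zwilch share 254 bases with Lctl on the other strand. Mad2l1 encodes MAD2, the protein that captures the activator of the anaphase-promoting complex, and had 112, 102 and 129 CPM in MYC_On and 17.97, 10.5 and 7.22 CPM in MYC_Off (-3.26, SE 0.37, adjusted p = 0.00101).

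Partners of these proteins had smaller fold changes. Bub3 encodes the WD40 protein that carries BUB1 and BUBR1 to kinetochores and stays bound to both. It had 76.5, 99.5 and 87.0 CPM in MYC_On and 45.1, 38.0 and 46.5 CPM in MYC_Off, a clear separation but a modest one (log2 fold change -1.02, SE 0.21, adjusted p = 0.00625). Its promoter, printed above, holds both CHR and CCAAT letters. The Mad2l1 window held neither, but it lay wholly before the gene start given by GENCODE, so the sequence at that start was not searched. Mad1l1 encodes MAD1, the kinetochore anchor of MAD2, and had 29.7, 29.0 and 29.3 CPM and then 21.2, 23.3 and 27.3 CPM. All MYC_Off libraries were below all MYC_On libraries, yet the difference of -0.30 (SE 0.21, adjusted p = 0.256) did not pass. Mad1l1 was lower with library size only (-1.05, adjusted p = 0.0109) and with the library size less the 20 most abundant genes (-0.70, adjusted p = 0.0389).

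Read ratios within a library, which need no scaling, restate these differences for pairs picked after their values were seen. There were 1.08, 1.67 and 1.44 reads of Bub3 per read of Bub1 in MYC_On and 6.03, 18.4 and 31.8 in MYC_Off. For Mad1l1 per read of Mad2l1 the ratios were 0.266, 0.283 and 0.228 in MYC_On and 1.18, 2.22 and 3.78 in MYC_Off. Neither pair overlapped between groups, which is no separate test because the pairs were picked for unequal change. MYC_Off replicate 1 was nearest to MYC_On in both.

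**Figure D4:**
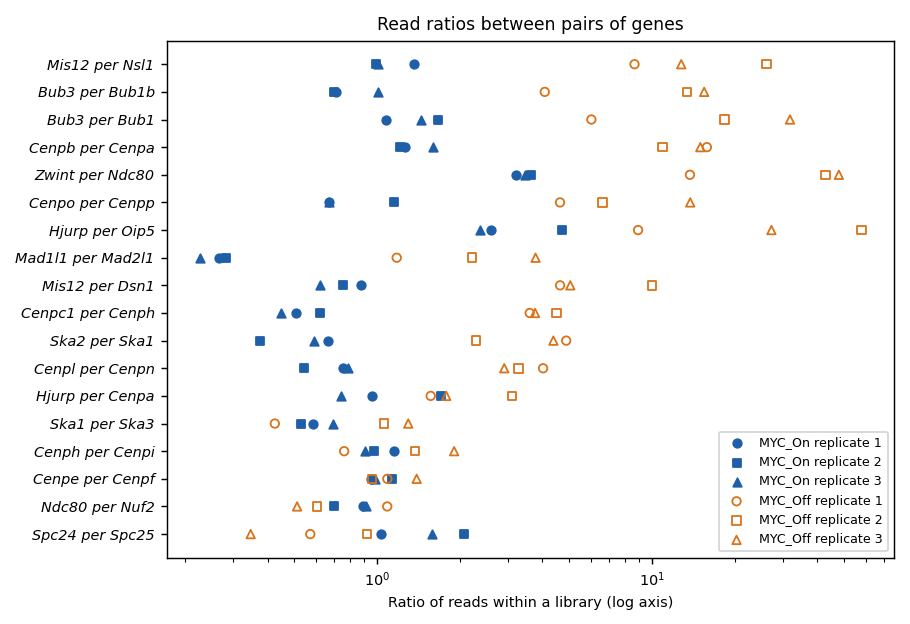
Reads of one gene per read of another within each library, on a log axis, for 18 pairs picked after their values were seen, with filled symbols for MYC_On and open symbols for MYC_Off. In the upper 12 pairs, which do not overlap, the first gene fell less than its partner, did not pass or rose. The lowest pair (Spc24 per Spc25) moves the other way, and the 5 pairs between them overlap.

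Genes that couple kinetochores to moving microtubules fell in 4 of 5 cases, with a median of -3.82. Cenpe encodes the kinesin that carries chromosomes to the spindle centre (chromosome 3, 135212537 to 135273611, plus strand). It had 72.3, 78.2 and 53.5 CPM in MYC_On and 7.91, 3.52 and 4.07 CPM in MYC_Off (-3.71, SE 0.38, adjusted p = 0.000896). Cenpf, a large protein of the outermost corona (chromosome 1, 189640606 to 189688086, minus strand), had 76.3, 69.0 and 54.4 CPM and then 7.25, 3.67 and 2.92 CPM (-3.84, SE 0.40, adjusted p = 0.000896). The 2 genes kept step: there were 0.949, 1.13 and 0.984 reads of Cenpe per read of Cenpf in MYC_On and 1.09, 0.958 and 1.39 in MYC_Off, which overlap.

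The SKA complex tracks the ends of shrinking microtubules together with NDC80. Ska1 fell from 19.8 ± 1.23 to 1.39 ± 0.442 CPM (-3.82, SE 0.35, adjusted p = 0.000814) and Ska3 from 33.1 ± 2.48 to 2.13 ± 1.98 CPM (-3.93, SE 0.64, adjusted p = 0.00288). Ska2, the third subunit, had 12.9, 7.04 and 12.5 CPM in MYC_On and 9.12, 2.99 and 4.38 CPM in MYC_Off. MYC_Off replicate 1 lay above MYC_On replicate 2, and the log2 fold change of -0.97 (SE 0.49) did not pass (adjusted p = 0.136), although without MYC_Off replicate 1 it was -1.70 (adjusted p = 0.0133). Of the Ska2 transcript, 25.8% is shared with other genes, among them the pseudogene Ska2l-ps and Gm11491, so its count is uncertain.

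Sgo1 encodes shugoshin, which protects cohesion at centromeres until anaphase (chromosome 17, 53674786 to 53689333, minus strand). It stood at 36.6, 35.6 and 33.1 CPM in MYC_On and at 3.63, 1.15 and 1.77 CPM in MYC_Off, with MYC_Off replicate 1 highest (log2 fold change -3.99, SE 0.45, adjusted p = 0.000992). Cenpj carries a centromere symbol, but its protein builds centrioles, the cores of the spindle poles. It had 10.02, 12.6 and 7.25 CPM in MYC_On and 7.03, 9.57 and 7.45 CPM in MYC_Off, and the groups overlapped (-0.31, SE 0.33, adjusted p = 0.455). With library size only it passed as lower (-1.07, adjusted p = 0.0485).

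Per kilobase of merged exons, the order of levels among the 39 genes was different in the 2 groups. In MYC_On the highest were Spc24 (42.7 ± 6.74 RPKM), Bub1b (26.2 ± 6.61) and Spc25 (23.2 ± 5.60), where Bub1b and Spc25 do not differ beyond their spread. In MYC_Off the highest were Cenpb (39.5 ± 18.5 RPKM), Zwint (14.9 ± 2.50) and Mis12 (8.38 ± 3.55). The lowest in MYC_On was Cenpo (0.978 ± 0.0345 RPKM), next to Cenpk (1.06 ± 0.333), from which it does not differ beyond the spread. Principal transcript lengths changed the order in both groups. In MYC_On Spc24 (80.4 RPKM) and Spc25 (62.0) then led, followed by Cenpa (43.2), Bub3 (39.5) and Bub1b (30.6), and the lowest were Cenpo (1.63), Cenpj (2.09) and Cenpu (2.44), with Cenpk at 4.57. In MYC_Off Cenpb and Zwint still led (39.5 and 24.7 RPKM), followed by Bub3 (19.5 RPKM) in place of Mis12.

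Most other genes of the same structures fell too. In a list of 21 further centromere and kinetochore genes 18 fell, 0 rose and 3 did not pass (Zw10, Itgb3bp and Mad2l1bp). Their median was -3.37, beside 0.18 over all rows, of which 22.8% were called lower. Spag5, the spindle protein astrin, fell from 56.8 ± 9.0 to 3.75 ± 1.33 CPM (-3.91, SE 0.33, adjusted p = 0.000805). Pmf1, a partner of Mis12 in its complex, fell from 106 ± 13.6 to 25.2 ± 1.71 CPM (-2.07, SE 0.21, adjusted p = 0.00085). With Pmf1, 3 of the 4 subunits of the MIS12 complex fell, and Mis12 itself did not pass. Zw10, a partner of Zwilch with further duties in membrane traffic, stood at -0.64 (adjusted p = 0.0814), Itgb3bp, the gene of CENP-R, at -0.49 (adjusted p = 0.23) and Mad2l1bp, which removes MAD2 from its complex, at 0.14 (adjusted p = 0.736).

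Lists for neighbouring steps of chromosome segregation had medians closer to 0, and the differences between lists were not tested. Over all rows tested, 22.8% were called lower and 29.9% higher, with a median of 0.18. Of 16 cohesin and separase genes 11 fell (median -1.26), and the smallest adjusted p were those of Cdca5 (-3.79, SE 0.40), the protector sororin, and the ring subunit Smc3 (-1.78, SE 0.25), while Stag2, Nipbl, Mau2, Esco1 and Hdac8 did not pass. Of 18 genes of the anaphase-promoting complex 9 fell (median -0.79), with the ubiquitin-conjugating enzyme Ube2c at -3.98 (SE 0.36) and the activator Cdc20 at -4.40 (SE 0.52). Of 12 centriole duplication genes 8 fell (median -1.19), with Stil at -3.11 (SE 0.38) and Sass6 at -2.54 (SE 0.40), while Cep97, Cep120, Cntrob and Spice1 did not pass. The centriole count was 5 without MYC_On replicate 1. No gene of these 3 lists was higher.

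General markers of dividing cells fell in 8 of 8 cases, beside 22.8% of all rows tested, with a median of -3.99. Mki67, the Ki-67 antigen, fell from 343 ± 87.7 to 40.5 ± 4.63 CPM (-3.08, SE 0.30, adjusted p = 0.00085) and Top2a, the mitotic topoisomerase, from 437 ± 64.5 to 26.96 ± 19.01 CPM (-4.02, SE 0.54, adjusted p = 0.00158). Ccnb2, a mitotic cyclin, fell by 3.48 on the log2 scale (SE 0.37, adjusted p = 0.000914). The library medians of these markers were -3.03, -4.65 and -4.51 in MYC_Off replicates 1 to 3, and those of the 7 checkpoint genes -3.07, -4.46 and -5.08. Both sets were thus least reduced in replicate 1, the library with the highest Myc level of its group. That library also had the highest summed T cell, macrophage, endothelial, stellate and red cell markers. With 1 such library these traits cannot be told apart. Whether fewer dividing cells account for the fall of the centromere and kinetochore genes was not tested.

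**Figure D5:**
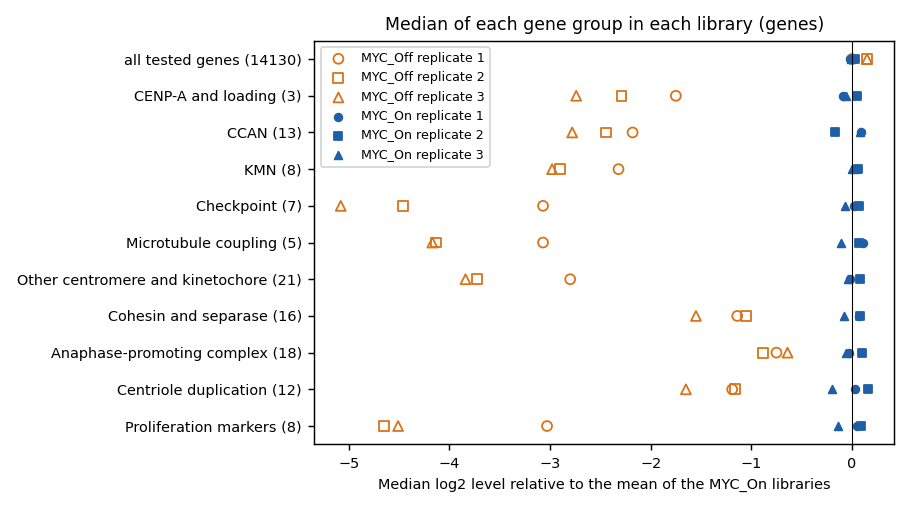
Median log2 level of each gene group in each library relative to the mean of the MYC_On libraries, with the number of genes in brackets, filled symbols for MYC_On and open symbols for MYC_Off. The medians of all tested rows stay between -0.02 and 0.15, the checkpoint, microtubule-coupling and proliferation groups reach furthest left, and MYC_Off replicate 1 is nearest to MYC_On in the groups of centromere and kinetochore genes.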

How the data were processed

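The deposited table holds whole-number read counts per gene symbol and library, not normalized by the authors. Per the submitters' processing notes reads on mm10 were processed with featureCounts, STAR, Trimmomatic, Picard and DESeq2. The sources used here do not give tool versions, the annotation or the strand setting, so genes that overlap on opposite strands cannot be separated. In 26 of 52459 rows the symbol had become a date, and none of these is described. The names of all 6 libraries share a stretch of code that the labels do not explain. Near the end, the name of MYC_Off replicate 3 holds RAAPEI where the others hold RBAPEI, and the meaning is not stated.

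Sample titles gave the groups and the replicate numbers. Counts were fitted on the whole table with edgeR 4.0.16 in R 4.3.3 (filterByExpr with minimum count 10 and minimum total 15, TMM, robust quasi-likelihood fit and test, Benjamini-Hochberg threshold 0.05). TMM factors were 1.25 to 1.36 in MYC_On and 0.677 to 0.993 in MYC_Off. Each SE was derived from the F statistic and its fold change. Log2 values behind library medians used a prior count of 2. Libraries of a group differed by more than sampling noise (chi-square at least 29.1 per degree of freedom). The fit was tested on simulated data in which few genes changed, as many up as down. Because far more rows changed here, that simulation could not check the scaling.

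Coordinates and merged exon lengths come from GENCODE mouse release M21 (mm10), which matched 91.7% of symbols and all 39 genes. Principal transcript lengths were added after the data were seen. Shared stretches (at least 95% identity over 100 bases) were found with blastn 2.17.0. Promoter windows are RefSeq's (GRCm38.p6). The 39 genes and all lists were chosen with earlier results of these data known. The result of 1 cell type marker list is not reported here. Named in each list are the 2 members with the smallest adjusted p, any that rose, those that did not pass where 5 or fewer, and Mki67 and Top2a. Other settings tried were scaling by library size alone, by library size less the 20 most abundant genes or by DESeq2's size factors, testing with limma-voom (limma 3.58.1) or DESeq2 1.42.0, a filter of 1 CPM in 3 libraries or none, an ordinary in place of a robust fit, a block for the replicate number, a stricter threshold of 0.01, glmTreat with a minimum of 2-fold, and each replicate left out in turn. Figures were drawn with matplotlib 3.10.9.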

Additional observations from a re-analysis of the deposited data

How the results depend on the processing

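The number of centromere and kinetochore genes that fell was 28 to 35 of 39 over all alternatives, 29 to 33 when a replicate was left out. With library size only, all rows moved by -0.74 (log2) at the median: 5300 rows were lower and 2527 higher, 32.3% of calls were higher in place of 56.7% (42.8% without the 20 most abundant genes), the median of the 39 genes was -3.68, Mis12 was at -0.13 and 0 of the 39 were higher. The count of 39 higher was also 0 with the library size less the 20 most abundant genes, with the replicate block, at an adjusted p of 0.01 and with glmTreat, and 0 to 2 when a replicate was left out. At an adjusted p of 0.01, 1889 rows were lower and 2368 higher, and 5 centriole genes fell. Against 2-fold, 1428 rows were lower and 2621 higher, with 6 cohesin, 5 anaphase-promoting complex and 5 centriole genes lower. Leaving out a replicate gave 2337 to 3786 rows lower, 2776 to 4317 higher and 5 to 11 centriole genes lower.

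Same-numbered libraries did not deviate together (correlations -0.262, -0.168 and 0.04), which gave no sign of pairing. With 3 libraries per group such correlations cannot exclude it, and the labels do not state it. The replicate block gave 2611 rows lower and 3152 higher, and 31 of the 39 genes lower. Besides the cases given in the text, single genes lost their call only at an adjusted p of 0.01 (Hjurp, Cenpb, Cenpc1, Cenpl), against 2-fold (these and Bub3) or with the block (Cenpb, adjusted p = 0.0791, and Cenpl, adjusted p = 0.057). In these fits the causes were not tested. At this depth the least-read genes rested on 5 to 9 MYC_Off reads, which limits the precision of their fold changes.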
